A study of Arabidopsis thaliana with 4 samples.

Results

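The RALF-like (RALFL) probes are the array probes whose platform annotation lists a gene symbol of the form RALFL followed by a number. Of 26474 gene probes, 9 met this, and all 9 had a measured ratio on all 4 arrays, so the requirement of at least 3 measured arrays removed none. They list 11 genes of the 34 RALF and RALFL genes in the TAIR10.1 gene table, among 13860 genes that measured probes list. Of the 9 probes, 5 list 1 gene each (RALFL22, RALFL25, RALFL27, RALFL32 and RALFL34). The other 4 list several genes, so their values cannot be assigned to one of them. The family was chosen by the ratios of the RALFL25 probe, which stood far from 0 on all 4 arrays, and those ratios are therefore given as a description with no test.

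RALF peptides are small, cysteine-rich proteins that plant cells secrete, named for the rapid alkalinisation of the medium that they cause in cell cultures. They bind receptor kinases of the FERONIA family together with small membrane-anchored co-receptors, and they also bind wall proteins of the leucine-rich extensin type. In flowers they are best known from pollen tubes, whose integrity depends on RALF peptides acting on the ANXUR receptors, and from the exchange between pollen and stigma, in which RALFL25, RALFL26 and RALFL30 are peptides of the pollen side and RALFL22 of the stigma side. RALFL34 is known as a ligand of the receptor THESEUS1 in roots.

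The samples were total RNA of Arabidopsis thaliana inflorescences, the shoots that carry the flower buds, from apetala2 mutants and from wild-type plants. APETALA2 is a transcription factor that specifies the outer floral organs. Each of 4 Operon arrays (sets 1 to 4) carried apetala2 RNA in one channel and wild-type RNA in the other. Per the labels, the mutant's RNA was in channel 1 of sets 1 and 3 and in channel 2 of sets 2 and 4. The labels give no allele, age or dye for either genotype. Whether separate plants were used for the 4 sets is also not stated, so p-values cover only how these arrays vary, which may be technical variation.

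Each value is a log2 ratio of both channels, and the sources used here do not name the genotype in its numerator. Ratios of sets 1 and 2 correlated at r = -0.479 over all gene probes and those of sets 3 and 4 at r = -0.474, whereas sets 1 and 3, which carry apetala2 in the same labelled channel, correlated at r = -0.227, as sets 2 and 4 did at r = -0.119 (across probes, which are not independent replicates). Only sets 1 and 4 (r = 0.313) and sets 2 and 3 (r = 0.307), which carry apetala2 in opposite labelled channels, correlated positively. The direction of the ratios is therefore not settled, and for no RALFL gene is a genotype named as the higher one. Every mean is given in both orientations. The first turns the sign of sets 2 and 4, as the labelled channels ask. The second turns sets 2 and 3, so that sets 1 and 4 keep their sign, and it was chosen from these data. The p-values and the agreement of signs in the second orientation make no allowance for that choice, so they describe these arrays only.

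RALFL25 had the widest range of the 9 probes. Its deposited log2 ratio was -2.49 on set 1 and -3.19 on set 4, against 1.45 on set 2 and 3.50 on set 3. The values of sets 1 and 4 thus lay on the opposite side of 0 from those of sets 2 and 3. RALFL25 was picked for its values on these arrays, so nothing is read from that split. Of the 25185 probes measured on all 4 arrays, 2657 had the same signs and 3124 the mirror signs. Among the measured gene probes of each array, 0.638% lay below RALFL25 on set 1 and 0.152% on set 4, and 97.6% lay below it on set 2 and 99.8% on set 3. Only 136 of 25185 probes measured on all 4 arrays were at least as far from 0 on every array as the smallest RALFL25 value, and 128 of them, RALFL25 included, had its order of signs.

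With sets 2 and 3 turned the mean of RALFL25 was -2.66 ± 0.34 (moderated standard error, SE, n = 4), a 6.31-fold difference in size. It ranked 16 from the negative end among 25777 probes and 2 among the 5640 probes with 1 gene. The orientation accounted for 92.0% of the sum of squares of its 4 ratios, against a median of 27.8% over all probes. The pair of sets 1 and 2 gave -1.97 and the pair of sets 3 and 4 gave -3.34. RALFL25 was picked for its values on these arrays. The shared sign of the pairs, the rank and the share of the sum of squares follow largely from that choice. With the labelled channels the mean was 0.69 ± 1.17 (SE, n = 4), since the pairs then have opposite signs. The choice of RALFL25 for its pattern largely fixed that value too.

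**Figure D1:**
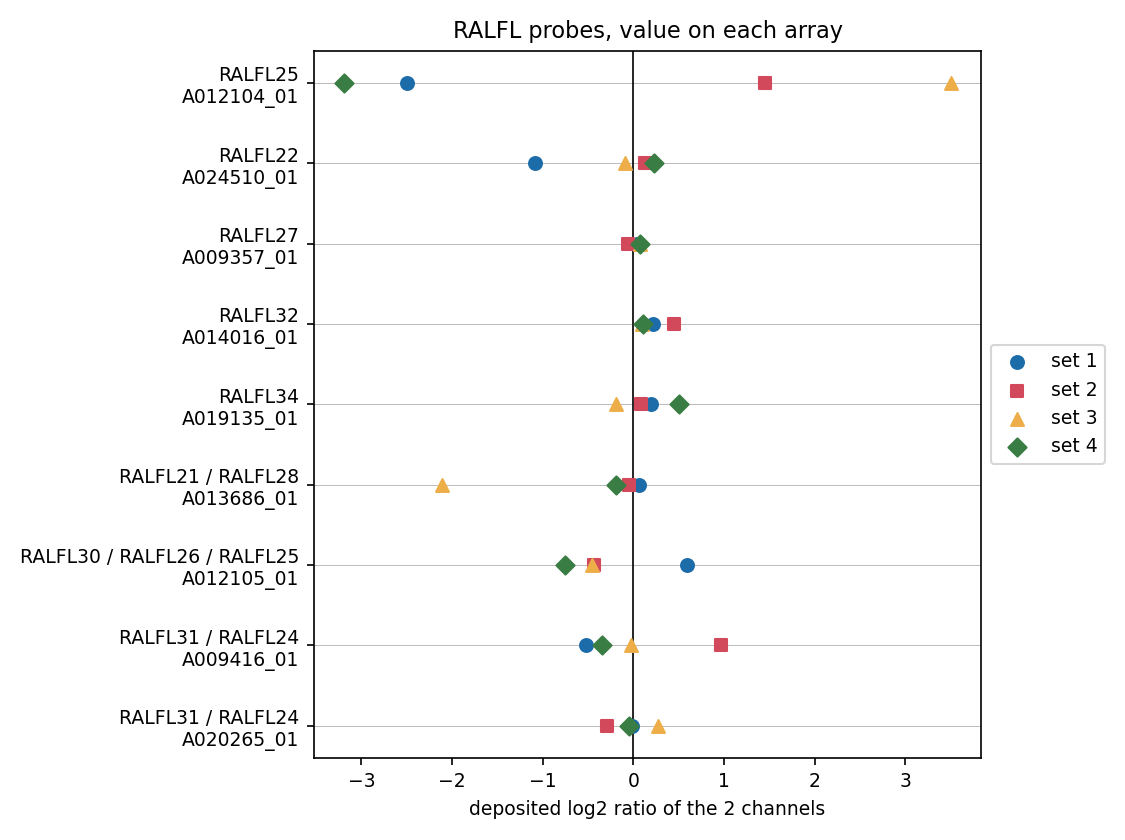
Deposited log2 ratio (horizontal axis) of each of the 9 RALFL probes on sets 1 to 4, 1 marker per array, with probes of 1 gene above those of several genes. RALFL25 spans -3.19 to 3.50, and the other probes lie mostly within 0.6 of 0.

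The other probe that lists RALFL25 did not follow it. This probe lists RALFL30, RALFL26 and RALFL25, the peptides of the pollen side named above, and in the TAIR10.1 gene order RALFL25 and RALFL26 are direct neighbours with 0 protein-coding genes between them. Its ratios on sets 1 to 4 were 0.59, -0.43, -0.46 and -0.75. On each of sets 1, 2 and 3 its sign was opposite to that of the RALFL25 probe, and on set 4 both were negative. The probes differed by -3.08, 1.89, 3.96 and -2.44 on sets 1 to 4. With sets 2 and 3 turned its mean was 0.18 ± 0.25 (SE, n = 4, limma adjusted p = 0.791), and with the labelled channels 0.33 ± 0.23 (SE, n = 4, limma adjusted p = 0.796). The 6.31-fold difference of RALFL25 thus rests on 1 probe, and the brightness of neither probe was used here.

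RALFL22, the stigma-side peptide, had ratios of -1.08, 0.13, -0.09 and 0.22 on sets 1 to 4. One array stood apart, and the other 3 lay within 0.23 of 0. Its mean was -0.22 ± 0.24 with sets 2 and 3 turned and -0.38 ± 0.21 with the labelled channels (SE, n = 4, limma adjusted p = 0.731 and 0.761).

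RALFL34, the THESEUS1 ligand, had ratios of 0.19, 0.08, -0.19 and 0.50 on sets 1 to 4, which gave 0.20 ± 0.14 with sets 2 and 3 turned and -0.15 ± 0.15 with the labelled channels (SE, n = 4). RALFL32 had 0.22, 0.45, 0.09 and 0.10 on sets 1 to 4. It was the 1 probe of the 9 with the same sign on all 4 arrays as deposited, and 69.4% of its sum of squares lay in the mean of the unturned ratios. RALFL27 had 0.04, -0.06, 0.07 and 0.08 on sets 1 to 4. Its ratio never exceeded 0.08 in size, and only 32 of the 25185 probes measured on all 4 arrays stayed closer to 0 throughout (the median probe reached 0.526).

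A pair of probes lists RALFL31 and RALFL24 together. The first (A009416_01) had -0.52, 0.97, -0.02 and -0.35 on sets 1 to 4, the second (A020265_01) -0.01, -0.29, 0.27 and -0.04. They had opposite signs on sets 2 and 3 and differed by 1.26 on set 2, so they did not give one value for these genes. The first had a mean of -0.45 ± 0.18 with sets 2 and 3 turned (SE, n = 4, limma adjusted p = 0.379), the lowest after RALFL25. The second had -0.01 ± 0.14 (SE, n = 4).

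The probe that lists RALFL21 and RALFL28 had 0.06, -0.05, -2.11 and -0.19 on sets 1 to 4. Only set 3 was far from 0, where 0.101% of measured gene probes lay lower. Its means, 0.51 ± 0.40 with sets 2 and 3 turned and -0.45 ± 0.43 with the labelled channels (SE, n = 4), therefore rest on that array. Without set 3 they were -0.03 and 0.10.

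Across the 8 probes other than that of RALFL25, 28 of the 32 ratios lay within 0.6 of 0 and 2 lay beyond 1, those of RALFL22 on set 1 and of the RALFL21 and RALFL28 probe on set 3. Over all gene probes between 6.06% and 10.6% of the measured ratios of an array lay beyond 1. The median probe measured on all 4 arrays had a largest ratio of 0.526 in size, so ratios within 0.6 of 0 were common on these arrays. No other RALFL probe had the order of signs of RALFL25, which 2657 of the 25185 probes measured on all 4 arrays had.

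**Figure D2:**
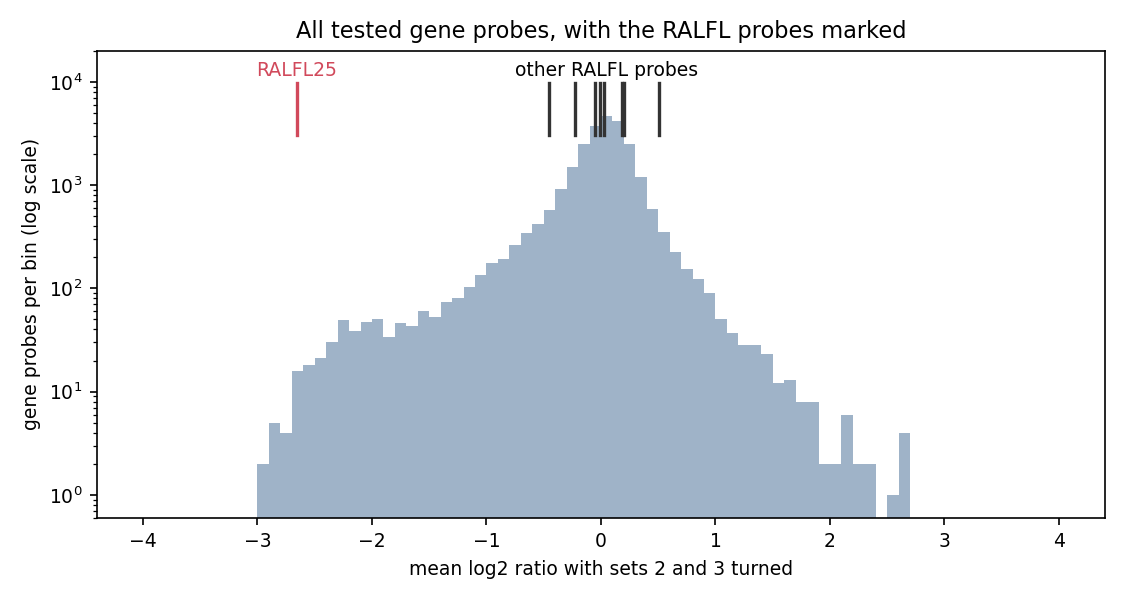
Number of gene probes (vertical axis, log scale) by mean log2 ratio with sets 2 and 3 turned (horizontal axis, bins of 0.1), with the RALFL probes as vertical marks. RALFL25 at -2.66 lies in the sparse left tail and the other 8 marks, from -0.45 to 0.51, in the bulk.

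The tests concern the 8 probes other than that of RALFL25. In the labelled orientation none of them passed a limma adjusted p of 0.05, and neither did any of the 25777 probes tested (0%). At an unadjusted p under 0.05 there were 1689 probes in limma. A test without moderation of the variances also passed 0, with 1780 at an unadjusted p under 0.05. The 8 RALFL probes had limma adjusted p from 0.761 to 0.977 there. Their median mean was -0.10, against 0.02 over all probes, and 5 of the 8 lay below 0.

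With sets 2 and 3 turned, 528 of 25777 probes passed (2.05%), 470 with a negative mean (1.82%) and 58 with a positive one (0.225%). RALFL25 is among the 470, and nothing is read from that, since the family was chosen by its values. None of the other 8 passed. They had limma adjusted p from 0.379 to 0.981 and means from -0.45 to 0.51. Their median was 0.01, against 0.03 over all probes, with 4 of the 8 below 0. A p that misses the threshold does not show that these genes were equal in both genotypes, and the standard errors of 0.11 to 0.40 give the precision.

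**Figure D3:**
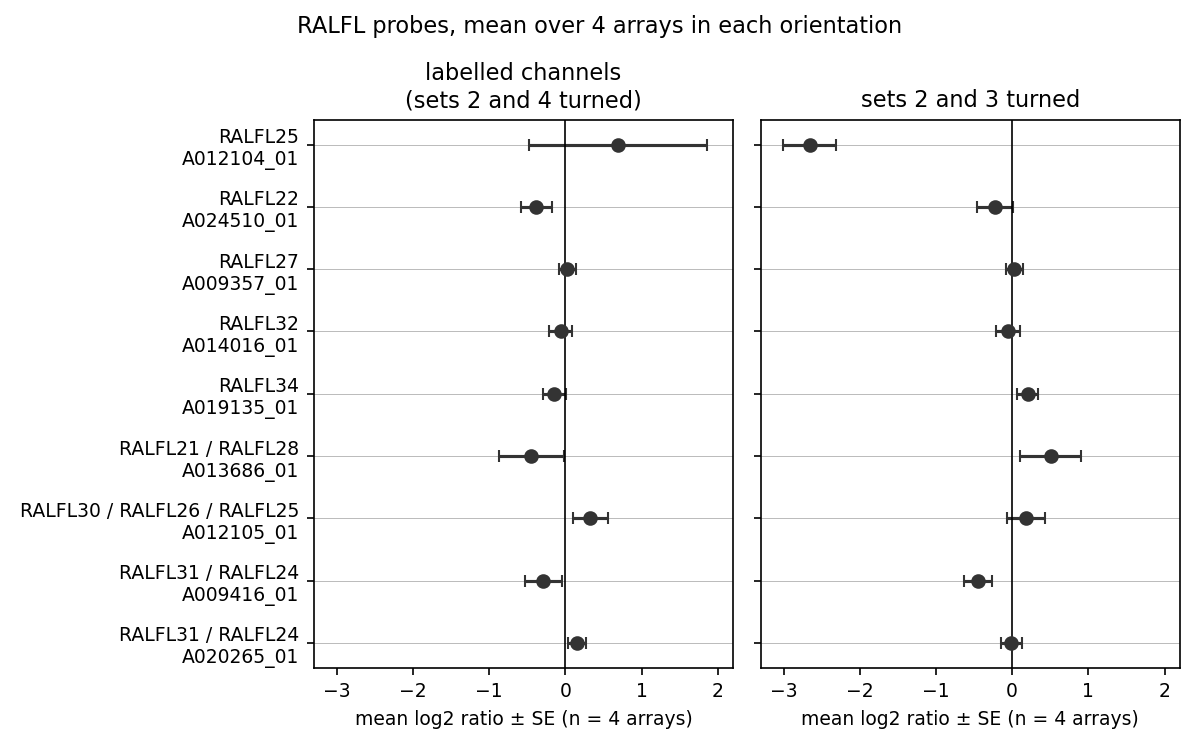
Mean log2 ratio of each RALFL probe (points) with its moderated SE (bars, n = 4 arrays), in the labelled orientation on the left and with sets 2 and 3 turned on the right. RALFL25 has 0.69 ± 1.17 on the left and -2.66 ± 0.34 on the right, and every other mean lies between -0.45 and 0.51.

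Other genes of RALF signalling were taken from a list of 35 receptors, co-receptors, wall partners and downstream components. Of these, 14 are listed by 13 measured probes, 5 of which list 1 gene. With sets 2 and 3 turned, 2 of the 13 passed with a negative mean and 0 with a positive one (1.82% and 0.225% of all probes), and the median mean was -1.21, against 0.03 over all probes. In the labelled orientation 0 of the 13 passed, with a median of 0.12 and a lowest limma adjusted p of 0.760. The calls with sets 2 and 3 turned were both lost without set 1, set 3 or set 4, and 3 probes passed without set 2. With sets 1 and 2 and sets 3 and 4 averaged to 2 replicates, and in a test without moderation, 0 of all 25777 probes passed with sets 2 and 3 turned. Every call in that orientation given here and below thus rests on moderated variances and on arrays counted separately.

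The receptors gave different pictures by probe. The probe of FER alone, the gene of the receptor FERONIA, had ratios of -0.13, -0.01, 0.04 and -4.33e-05 on sets 1 to 4, close to 0 on every array. A second probe, which lists ANX2, FER and ANX1, had -1.97, 0.94, 2.04 and -2.27. Sets 1 and 4 lay opposite to sets 2 and 3 there, as for RALFL25. ANX1 and ANX2 encode the pollen tube receptors ANXUR1 and ANXUR2. The probe had a mean of -1.80 ± 0.24 with sets 2 and 3 turned (SE, n = 4, limma adjusted p = 0.0264), an orientation chosen from these data. Which of the 3 genes it measured cannot be told apart.

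The other passing probe was that of AT2G41970, which had -1.58, 1.17, 1.27 and -1.56 on sets 1 to 4 and a mean of -1.40 ± 0.13 (SE, n = 4, limma adjusted p = 0.0106). A second probe that lists AT2G41970 beside other genes had 0.24, -0.16, 0.13 and 0.05, so this gene too had probes that disagreed. The probe listing AT1G49490, AT4G28380 and AT3G19020 had the lowest mean of the pathway list, -2.16 ± 0.45 (SE, n = 4, limma adjusted p = 0.0952), with ratios of -1.93, 0.52, 3.29 and -2.89 on sets 1 to 4. Another probe listing AT1G49490 and AT3G19020 had -1.55 ± 0.47 (SE, n = 4).

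The probes listing AT4G33970 with AT2G15880 had -1.36 ± 0.28 and -1.92 ± 0.41, and the probe of AT4G39110 and AT2G21480 -1.21 ± 0.45 (SE, n = 4). None of these passed. The probe that lists S1P, the site-1 protease known to cleave RALF precursors, beside other genes had 0.02 ± 0.19. AT2G39360, AT3G22800 and AT4G18670, each with a probe of its own, had -0.37 ± 0.19, 0.11 ± 0.28 and -0.02 ± 0.14 (SE, n = 4).

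Of 16 genes on a list of mature pollen markers, 13 are listed by 15 measured probes, 2 of which list 1 gene. Of the 15 probes, 8 passed with sets 2 and 3 turned, all with a negative mean (1.82% of all probes), and 7 did not. Of the 8, 4 list PPME1 and 2 list VGD1 with VGDH1, so the calls stand for few genes. Of these 2, the probe GP008F3 was not measured on set 3 and passed narrowly (n = 3, limma adjusted p = 0.0498). The values of set 3 given below leave it out. The count of passing pollen probes was 4 without set 1, set 3 or set 4. The median mean over the 15 was -1.92, with 14 below 0. Their ratios ran from -2.64 to 0.24 with a median of -1.93 on set 1, from -0.16 to 2.29 with a median of 0.94 on set 2, from 0.13 to 3.29 with a median of 2.43 on set 3 and from -2.89 to 0.05 with a median of -2.32 on set 4. The probe A025869_01, listing VGD1 and VGDH1, pectin methylesterases of the pollen tube, had -2.06, 1.47, 3.11 and -2.85 on sets 1 to 4, each on the same side as RALFL25. TUA1, the alpha-tubulin of pollen, had -0.49, 0.71, 0.36 and -0.56 on its own probe, with the same signs at smaller size. It did not pass, with a mean of -0.53 ± 0.12 with sets 2 and 3 turned (SE, n = 4, limma adjusted p = 0.121). The pathway and pollen lists share 9 genes. The 8 pathway probes on both lists had means from -2.16 to 0.08 and held both calls, whereas the 5 pathway probes outside the pollen list had means from -0.37 to 0.11. Whether the amount of pollen in the samples plays a part in the ratios of RALFL25 was not tested, and in whole inflorescences fewer cells of a type and less RNA per cell cannot be told apart.

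The lists of other tissues had medians closer to 0 with sets 2 and 3 turned. The anther and tapetum list had -0.73 over 8 probes, and 1 passed, with a negative mean, a probe listing AtVEX1, SWEET8 and SWEET4 (1.82% of all probes). That call was lost without set 1, set 2 or set 4. Which of its genes the probe measured cannot be told apart. The probe of SWEET8 alone did not pass, with a mean of -0.87 ± 0.25 (SE, n = 4, limma adjusted p = 0.206). The carpel and ovule list had 0.12 over 9 probes, and 1 passed, with a positive mean, a probe listing ALC and SPT (0.225% of all probes). That call was lost without set 1, set 3 or set 4. The photosynthesis list had -0.33 over 4 probes, and 0 passed (lowest limma adjusted p 0.467). In the labelled orientation 0 probes of these 3 lists or of the pollen list passed.

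**Figure D4:**
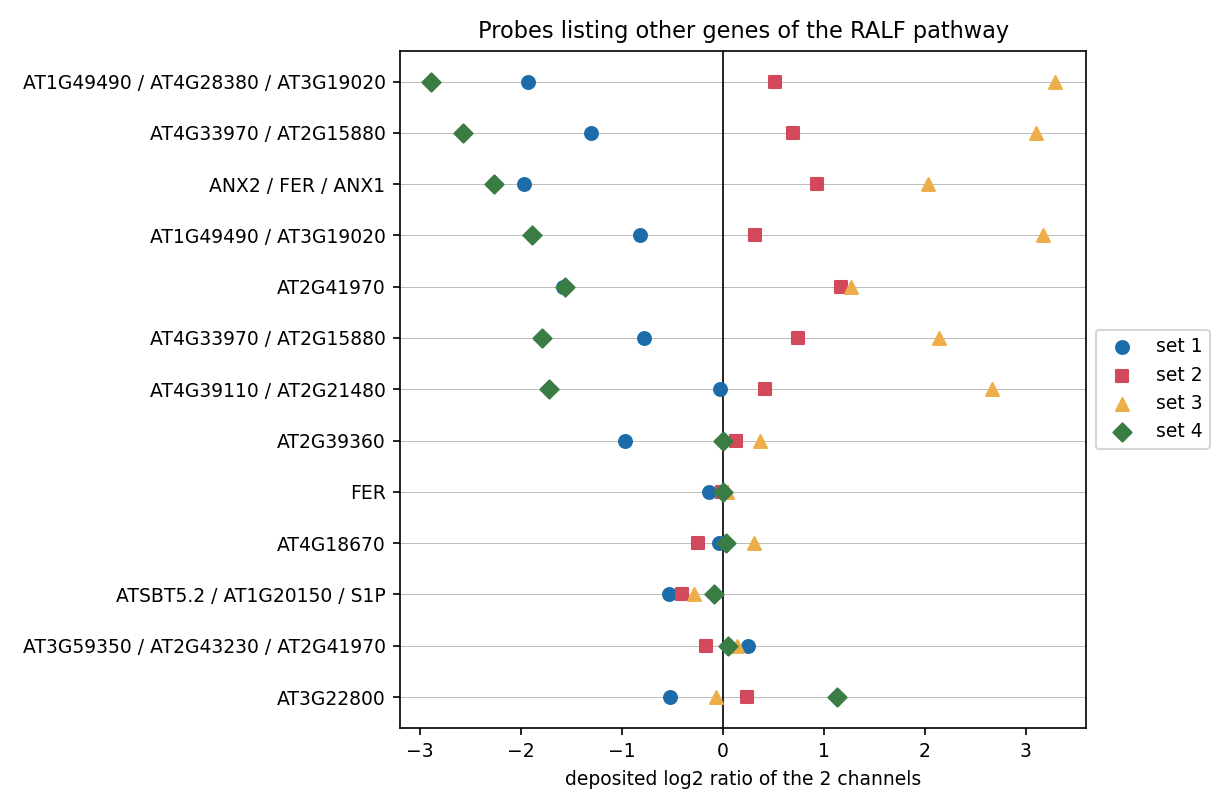
Deposited log2 ratio (horizontal axis) on sets 1 to 4 of the 13 probes that list other genes of the RALF pathway, ordered by mean with sets 2 and 3 turned, lowest on top. The upper 7 probes have sets 1 and 4 below 0 and sets 2 and 3 above 0, and the probe of FER alone stays within 0.14 of 0.

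The genes most like RALFL25 were sought among 5510 other probes with 1 gene measured on all 4 arrays, by the root mean square difference of the 4 deposited log2 ratios. The nearest 10 genes were AT3G21570, AT1G13670, AT3G62710, AT5G50830, AT1G13970, BGLU36, AT1G35490, AT1G58120, AT5G62750 and AT4G03620, at differences of 0.218 to 0.395, against a median of 2.82. BGLU36 belongs to the beta-glucosidase family, and the others are given by their IDs. Their ratios ran from -2.84 to -2.01 on set 1, from 0.88 to 1.52 on set 2, from 2.89 to 3.38 on set 3 and from -3.39 to -2.62 on set 4. All 10, like RALFL25, had their smallest ratio in size on set 2, which follows largely from picking them by their distance from its values. The likeness rests on 4 values that share their arrays and describes these arrays alone.

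The other RALFL genes with a probe of their own were not among them. RALFL22 stood at rank 1377 with a difference of 2.66, RALFL32 at rank 2305 with 2.78, RALFL27 at rank 2448 with 2.79 and RALFL34 at rank 4564 with 3.02. These differences lay on either side of the median of 2.82. Apart from RALFL22 on set 1 (-1.08), the ratios of these genes lay within 0.6 of 0.

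**Figure D5:**
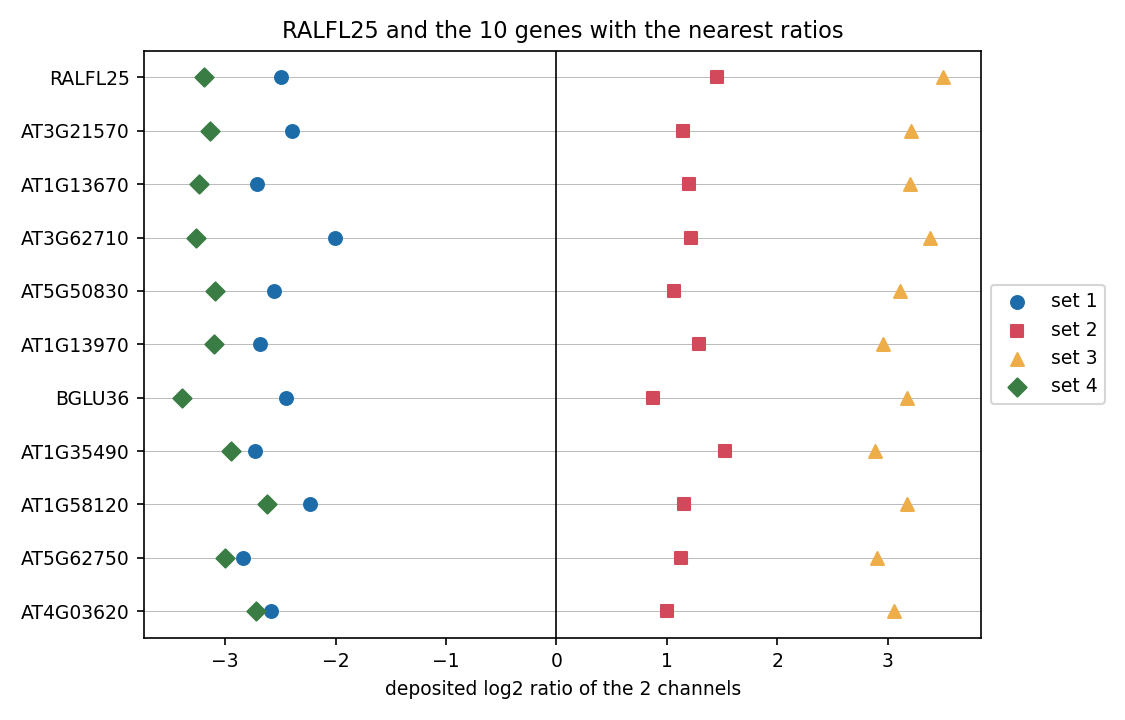
Deposited log2 ratio (horizontal axis) on sets 1 to 4 of RALFL25 (top row) and of the 10 genes with the nearest ratios, in order of increasing difference. In every row sets 1 and 4 lie below -2 and sets 2 and 3 above 0.8.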

How the data were processed

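The deposited values are log2 ratios of both channels of each array, which the authors processed and normalized as in an earlier publication, per the labels. The sources used here name no background correction, filter or numerator. Of 26933 spots in the table, the 459 control spots were left out. Deposited values end at a log2 of 6.64 on either side, the log2 of 100, where most spots named empty sat. Values within 0.0001 of that limit were treated as not measured. No intensities were used, so the number of arrays limits the precision.

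An intercept was fitted with limma 3.58.1 (R 4.3.3, lmFit and eBayes) to all 25777 gene probes measured on at least 3 arrays, testing each mean against 0 on both sides, with p-values adjusted over all of them by the Benjamini-Hochberg method. The threshold was an adjusted p of 0.05. The fit was tested on simulated data with independent arrays and a constant shift. These data modelled neither pairs of arrays nor an orientation chosen from the data, so the simulation does not bear on those limits. Probes were named from the platform annotation, updated through the TAIR10.1 gene table (5784 gene probes with 1 gene, 7497 with several, 13193 unnamed here). Named were every RALFL gene, pathway genes with a measured probe of their own, and the 10 genes nearest to RALFL25. Probes with several genes of the pathway list, and probes that illustrate a list, were chosen after their values were seen. The RALFL probes, lists and orientations were chosen with earlier results of these data known. Alternatives left out each array, kept limit values, required 4 measured arrays, centred each array, added a channel term, averaged sets 1 and 2 and sets 3 and 4 to 2 replicates, or used an ordinary test.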

Additional observations from a re-analysis of the deposited data

Results flagged for a closer look

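In 18 sets of 4 values, the 9 RALFL probes in both orientations, Dixon's test at its 95% level set 1 array apart from the rest in 4. The same values enter both orientations, so the 18 sets are not independent and no excess of flags is read from them. Chance flags about 1 in 20, and over all probes measured on 4 arrays 4.63% were flagged in the labelled orientation and 4.98% with sets 2 and 3 turned. The RALFL21 and RALFL28 probe was flagged in both, with -2.11 on set 3 against 0.05 to 0.19 on the other arrays with the labelled channels, and with 2.11 on set 3 against -0.19 to 0.06 with sets 2 and 3 turned. RALFL22 had -1.08 on set 1 against -0.22 to -0.09 with the labelled channels. The RALFL30, RALFL26 and RALFL25 probe had -0.75 on set 4 against 0.43 to 0.59 with sets 2 and 3 turned.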

How the results depend on the processing

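In the labelled orientation the counts of passing RALFL, pathway and all probes stayed at 0 under every alternative run. With sets 2 and 3 turned, the RALFL count of 1 is RALFL25, by whose values the family was chosen, so it is no test of the family. It was 0 to 1 when 1 array was left out, and 0 with limit values kept, with the channel term, with pairs averaged to 2 replicates and in the ordinary test. The pathway count of 2 was 0 to 3 when 1 array was left out, 1 with limit values kept, 1 with the channel term and 0 with pairs averaged. The count of 528 over all probes was 94 to 441 when 1 array was left out, 158 with limit values kept, 273 with the channel term, and 0 with pairs averaged (1923 probes at an unadjusted p under 0.05) and in the ordinary test (2941). The calls were thus lost both where pairs were averaged and where 4 separate arrays were tested without moderation of the variances. The cause of these and the other losses was not tested. Leaving out 1 array changed the sign of some means that did not pass. With the labelled channels RALFL25 ran from -0.25 to 1.75, the RALFL21 and RALFL28 probe from -0.66 to 0.101 and RALFL32 from -0.155 to 0.0694. With sets 2 and 3 turned the RALFL21 and RALFL28 probe ran from -0.0275 to 0.74, RALFL32 from -0.146 to 0.0778, the second RALFL31 and RALFL24 probe from -0.11 to 0.0778 and RALFL22 from -0.37 to 0.0614. The mean of RALFL25 with sets 2 and 3 turned ran from -3.06 to -2.38. Each ratio already sets apetala2 against wild type on 1 array, and the main fit treats the 4 arrays as 1 group with no replicate block. Whether any of the 4 sets share plants or RNA is not stated, so whether a block applies is not known. Counts of the tissue lists under these settings were added after seeing the data.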
